A study of Mus musculus with 2 samples.

Results

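The subject is a set of 10 genes, Otof, Wdr95, Pgap1, Bcl2, Myo1c, Ankrd55, Abca8a, Epb41l4a, Gpr139 and Adap2, in nuclei of the mouse hippocampus with or without Capicua (Cic). The genes were chosen by the ratio of their counts between the libraries in dentate granule, CA3 or CA1 nuclei, where knockout exceeded control, so their ratios in these 3 classes describe the choice and support nothing. All 10 were found by symbol among the 33696 genes of the count tables. The ratios that chose the genes did not include those in the other cell classes. They also did not include whether the genes were found in the same nuclei as Etv4, a known target of CIC repression. The genes were chosen with earlier results of these data known, however, so these parts are a description as well. The study has 2 single-nucleus libraries of the hippocampus at postnatal day 19. The control library is Cicflox/flox, and the knockout library is Emx1-Cre; Cicflox/flox, so that both carry the floxed Cic alleles and differ in the Cre transgene. Each library pooled the tissue of 3 littermates, 2 males and 1 female, so each group is 1 sample. No replicate error can be computed, no p-value is given, and every interval is a 95% interval that covers counting error only.

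CIC is an HMG-box transcriptional repressor that binds TGAATGAA-type octamers in promoters and enhancers, and growth factor signalling through ERK relieves this repression. Its best known targets are the ETS factors Etv1, Etv4 and Etv5 and feedback inhibitors of the same pathway of the Spry, Spred and Dusp families. Emx1-Cre acts in the dorsal telencephalic lineage, which gives rise to the excitatory neurons and much of the macroglia of the hippocampus, whereas microglia and most interneurons arise elsewhere.

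After filters, 21865 control and 20531 knockout nuclei were used, with a median of 9790 and 8766 unique molecular identifiers (UMIs, counted molecules) per nucleus. The 2 libraries shared 175 barcodes. Nuclei were clustered without the 10 genes, Etv4 and Etv5 and named from marker genes, which gave 15 named classes with at least 100 nuclei in each library; 15.6% of control and 17.2% of knockout nuclei stayed in clusters without a name, which are given by number. Most granule-like nuclei of the 2 libraries lay in different clusters, 3395 of 4380 control nuclei in cluster 4 and 3221 of 3362 knockout nuclei in cluster 2. The library labelled knockout did not have less of the Cic transcript, which was counted at 9.05 and 12.3 CPM (UMIs scaled to 1e6 UMIs of the class) in control and knockout granule-like nuclei, 7.01 and 11.6 CPM in CA3-like nuclei and 6.53 and 12.6 CPM in CA1-like nuclei. Counts per gene do not show which exons were read, so they do not check the deletion. Etv4 separated the libraries in granule-like nuclei, with 57 UMIs (1.06 CPM) in control and 4266 UMIs (112 CPM) in knockout.

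A gene was counted as higher when its ratio reached 2-fold and the library with more of it held 50 UMIs and 10 CPM or more. By this rule 8 of the 10 genes were higher in granule-like nuclei, where 9 passed the minimum, against 2.3% of all genes tested there. In CA3-like nuclei 8 of the 8 that passed were higher, against a background of 1.32%, and in CA1-like nuclei 7 of 7, against 3.15%. These counts restate how the genes were picked. Over the 3 classes, 439 genes were higher in at least 1 class, 97 in at least 2 and 21 in all 3. Of the 10 genes, 8 were higher in at least 2 classes and 5 (Wdr95, Pgap1, Bcl2, Myo1c and Ankrd55) in all 3. Gpr139 was higher by the rule only in granule-like nuclei and Adap2 only in CA1-like nuclei, so a gain across classes describes 8 of the 10. Closest to the 2-fold limit were Myo1c in CA1-like nuclei, inside with a log2 ratio of 1.04, and Otof in CA1-like nuclei, outside with 0.98 and also under 10 CPM. Scaled by median-of-ratios size factors in place of class totals, Myo1c fell under 2-fold in CA3-like (0.96) and CA1-like nuclei. Of the 3 classes, that left it higher in granule-like nuclei only.

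Wdr95, which encodes a protein with WD40 repeats, and Otof, which encodes the ferlin otoferlin, a calcium sensor of exocytosis in hair cells, were very low in control granule-like nuclei. Wdr95 had 1.95 CPM in control and 49.5 CPM in knockout granule-like nuclei, a log2 ratio of 4.66 (4.38 to 4.97). Its level in CA3-like nuclei went from 2.27 to 25.1 CPM. CA1-like nuclei held Wdr95 already in control, at 35.6 CPM, and reached 125 CPM, so the class with the highest control level had the smallest ratio of the 3 (1.81, 1.71 to 1.91). Otof stood at 7.77 and 49.3 CPM in granule-like nuclei, a log2 ratio of 2.66 (2.51 to 2.82). CA3-like nuclei had 1.51 and 16.7 CPM of it, a ratio of 3.45 (2.97 to 4.00). CA1-like nuclei stayed close to 0 in both libraries, with 1.10 and 2.19 CPM.

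Pgap1 encodes the enzyme that removes the acyl chain from the inositol of GPI anchors in the endoplasmic reticulum. At least 1 UMI of it was found in 86.8% of knockout CA3-like, 74.7% of CA1-like and 53.5% of granule-like nuclei, against 54.6%, 24.2% and 13.5% in control. Its level went from 15.3 to 89.9 CPM in granule-like, from 47.1 to 137 CPM in CA3-like and from 18.3 to 111 CPM in CA1-like nuclei. The shares may carry free RNA as well. With nuclei thinned to 2000 UMIs and shallower ones left out, Pgap1 was found in 2.83% of control and 17.1% of knockout granule-like nuclei, and in 6.76% and 10.9% of microglia-like nuclei, whose median depths before thinning were 2136 and 1719 UMIs against 11792 and 10866 in granule-like nuclei. This left out 663 of 1492 control and 959 of 1474 knockout microglia-like nuclei, but 1 and 5 granule-like nuclei, so the microglial share is that of the deeper nuclei. At that depth the control granule share lay below the microglial one and the knockout share above it. Microglia-like nuclei may hold Pgap1 as their own transcript, so the part of free RNA in these shares was not tested.

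Bcl2, the inhibitor of apoptosis that names its family, had 8.32 CPM in control and 66.5 CPM in knockout granule-like nuclei (log2 ratio 3.00, 2.85 to 3.15). In CA3-like nuclei it had 4.53 and 23.5 CPM, and in CA1-like nuclei 27.5 and 72.4 CPM. Myo1c, a class I myosin that links membranes to actin, went from 3.47 to 22.2 CPM in granule-like nuclei, a log2 ratio of 2.68 (2.45 to 2.91). Its ratios were close to 2-fold in pyramidal nuclei, at 1.05 (0.81 to 1.30) for the CA3-like class and 1.04 (0.80 to 1.28) for the CA1-like class. Bcl2 and Myo1c were the 2 members whose promoter windows held a CIC-type octamer, so these stretches are shown, with the promoter of Spred3, a listed CIC target, for comparison. The sequences are RefSeq promoters of the build GRCm38.p6, written in the direction of the gene, and capitals mark the matched octamers (in Myo1c, 2 overlapping matches to TGAATGAA on the opposite strand) or, in the second Myo1c stretch, the ETS-type octamer CCGGAAGT:
Bcl2, chr1:106714361-106714448, minus strand: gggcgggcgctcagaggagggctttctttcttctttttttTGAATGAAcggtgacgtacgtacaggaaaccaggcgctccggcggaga
Myo1c, chr11:75652083-75652149, plus strand: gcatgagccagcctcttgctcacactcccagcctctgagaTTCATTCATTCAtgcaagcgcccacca
Myo1c, other start site, chr11:75655802-75655889, plus strand: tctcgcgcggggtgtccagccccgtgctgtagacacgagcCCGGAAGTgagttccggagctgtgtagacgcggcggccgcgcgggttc
Spred3, chr7:29168648-29168697, minus strand: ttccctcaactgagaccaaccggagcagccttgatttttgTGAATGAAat
The Bcl2 octamer spans positions -118 to -111 from the annotated start, the Myo1c pair -27 to -16 and the Spred3 octamer -10 to -3. Windows were available for 5 of the 10 genes (Pgap1, Bcl2, Myo1c, Abca8a and Adap2). Both strands were searched for TGAATGAA, TGAATGGA, TCAATGAA and TCAATGGA. At least 1 of these was held by 3.84% of 32817 RefSeq promoter windows, or by 1203 of 26994 genes. The 5 genes had 7 windows, of which 2 held one. The octamers were chosen after windows had been looked at, so the matches beside these shares are a description. The ETS octamers searched were CCGGAAGT and CAGGAAGT, found in 7.07% of windows. Of the 8 genes with a window on the list of known CIC targets, 3 held a CIC-type octamer: Dusp6, Spry2 and Spred3. In granule-like nuclei Spred3 was higher (log2 ratio 2.65), Spry2 was lower (-1.15) and Dusp6 stayed under the minimum. Etv1 and Etv5, both higher there, had windows without such an octamer. A match is a description of the letters and says nothing of binding.

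Ankrd55, which encodes an ankyrin repeat protein, had the largest ratio of all genes passing the minimum in CA1-like nuclei. There it was counted with 14 UMIs (0.43 CPM) in control and 886 UMIs (39.6 CPM) in knockout, a log2 ratio of 6.48 (5.77 to 7.40). CA3-like nuclei went from 8.10 to 91.3 CPM and granule-like nuclei from 21.8 to 68.2 CPM. Abca8a, a transporter of the lipid-handling ABCA subfamily, had 5.02 and 29.4 CPM in granule-like, 0.63 and 11.6 CPM in CA3-like and 0.40 and 3.44 CPM in CA1-like nuclei. In the last of these it stayed under the minimum level, at a log2 ratio of 3.06 (2.25 to 4.08).

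By the rule Epb41l4a was higher in both pyramidal classes, Adap2 in CA1-like and Gpr139 in granule-like nuclei. Epb41l4a, of the FERM-domain family of membrane-cytoskeleton linkers, had 2.61 and 50.9 CPM in CA1-like nuclei (log2 ratio 4.28, 3.97 to 4.62) and 5.12 and 26.6 CPM in CA3-like nuclei. Adap2, an ArfGAP with PH domains, had 6 UMIs in control and 261 in knockout CA1-like nuclei, or 0.18 and 11.7 CPM, and 4 and 95 UMIs in CA3-like nuclei, where it stayed under the minimum level. Granule-like nuclei were at 0.43 and 0.58 CPM of Adap2. Adap2 is also a microglial transcript here, at 632 and 646 CPM in microglia-like nuclei. In knockout, astrocyte-like nuclei had 2.72 CPM and oligodendrocyte-like nuclei 1.69 CPM of it. Subtracting the microglial mean per nucleus (1.41 UMIs in control and 1.16 in knockout) from every class as an estimate of free RNA left no Adap2 UMI in either library in CA1-like or CA3-like nuclei, which ended its call in the first. Microglia-like nuclei carry Adap2 as their own transcript, so that level is not a measure of free RNA alone, and the part of free microglial RNA in the Adap2 gain was not tested. Gpr139, an orphan G protein-coupled receptor, had 4.43 and 14.4 CPM in granule-like nuclei, and 0.25 and 3.80 CPM in CA1-like nuclei, where it stayed under the minimum level.

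**Figure D1:**
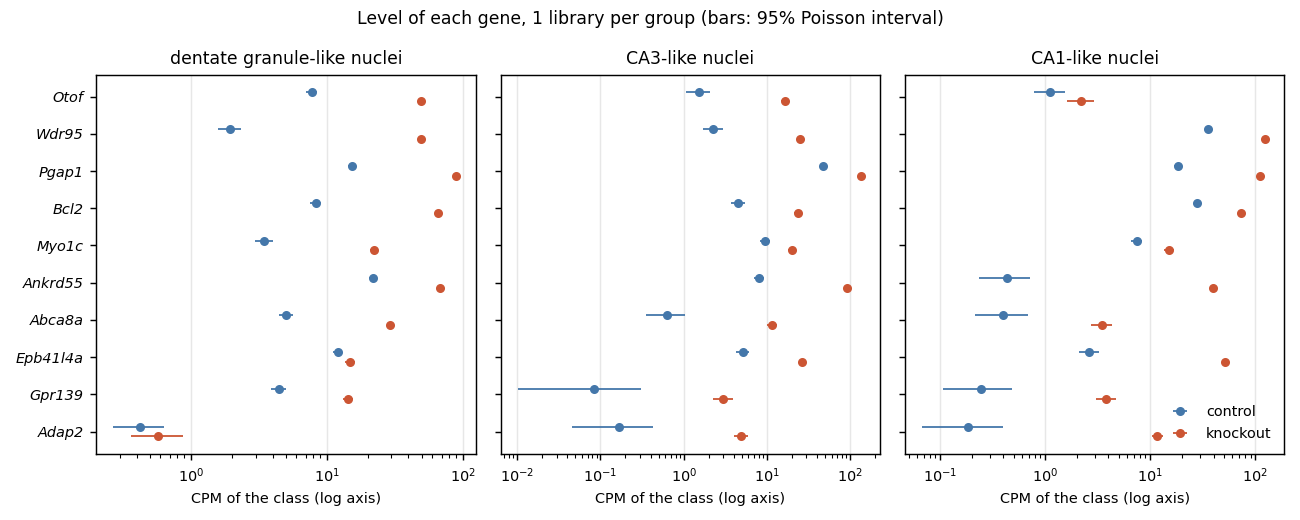
Level of the 10 genes in nuclei of the CA1-like, CA3-like and granule-like classes, in CPM of the class on a log axis. Points are the control (blue) and knockout (orange) library, and bars the 95% Poisson interval of the UMI sum. Intervals of the libraries overlap for Adap2 in granule-like nuclei (0.43 and 0.58 CPM) and lie close together for Otof in CA1-like nuclei.

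Because the libraries filled the 2 granule clusters so unequally, the ratios were also taken within each cluster. Otof, Wdr95, Pgap1, Bcl2, Myo1c and Abca8a were higher in knockout inside both clusters, with log2 ratios from 1.98 to 3.67 in cluster 2 and from 2.10 to 4.56 in cluster 4. Ankrd55 had a log2 ratio of 0.74 (0.60 to 0.89) in cluster 2 and 1.94 (1.63 to 2.22) in cluster 4. For Gpr139 the whole-class ratio of 1.70 fell to 0.14 (-0.12 to 0.42) in cluster 2, from 13.4 CPM in control to 14.8 CPM in knockout, and was 1.36 (0.12 to 2.28) in cluster 4, where the knockout held 9 UMIs. Epb41l4a was lower in knockout within cluster 2, at 22.6 and 15.0 CPM, a log2 ratio of -0.59 (-0.81 to -0.37). In cluster 4 its ratio was 0.21 (-0.60 to 0.85), and over the whole granule-like class 0.29. The 141 knockout nuclei that clustered with the control majority in cluster 4 carried Otof at 54.6 CPM, Bcl2 at 54.6 CPM and Pgap1 at 58.1 CPM, above the control nuclei of either cluster, and had an Etv4 UMI in 53.2% of nuclei, against 67.6% of the knockout nuclei in cluster 2. The part of the different cluster make-up in the granule gain of Gpr139 was not tested further. CA1-like nuclei formed a single cluster, but at the finer resolution of 2 the CA1-like clusters divided the libraries as well, with 454 control and 1339 knockout nuclei in one and 1277 and 31 in the other; ratios within these were not taken.

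Female and male nuclei, told apart by X- and Y-linked transcripts, come from different mice of the pool. In both pyramidal classes all 10 genes had a positive log2 ratio in both sexes. Granule-like nuclei showed the same in all but 1 case, Adap2 in females, at -0.02. A ratio of at least 2-fold in both sexes was seen for 8 genes in CA1-like, 9 in CA3-like and 8 in granule-like nuclei. The UMIs of each sex are part of the class sums whose ratios chose the genes. These signs and counts thus largely restate the choice and are a description.

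Some members were also higher in excitatory neurons outside the classes used for the choice. In CA2-like nuclei, which number 143 and 116, Wdr95, Pgap1 and Ankrd55 were higher, 3 of the 5 that passed the minimum, against 2.23% of all genes tested. Ankrd55 went from 6.66 to 140.4 CPM there and had the largest ratio among genes passing the minimum there, at 4.37 (3.79 to 5.08). Among the nuclei named subicular or cortical excitatory-like, Otof, Wdr95, Ankrd55 and Abca8a were higher, 4 of 8, against 0.913%. Of these, Otof (1.48 CPM in control), Ankrd55 (3.53 CPM) and Abca8a (3.78 CPM) passed the minimum through their knockout level alone, so this count, like the others over members that passed, is a description. Otof was found with 18 UMIs in control and 464 in knockout nuclei of this class, a log2 ratio of 4.71 (4.07 to 5.52), and Abca8a with 46 and 554 UMIs, 3.64 (3.21 to 4.12). Gpr139, whose highest named-class level in control was here, did not differ: 13.1 CPM in control and 12.8 CPM in knockout, a log2 ratio of -0.04.

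Among the clusters without a name, cluster 8, nearest to CA1 by its markers and led by Dcn, Ndrg1 and Cpne7, had the most members higher. Clusters 8 and 23, nearest to CA1, and cluster 21, nearest to CA3, resemble classes that chose the genes, so their counts may restate the choice. In cluster 8, 9 of 10 genes passed and 9 were higher, against 2.3% of genes, with log2 ratios from 1.17 for Myo1c to 3.77 for Ankrd55. Adap2 was the exception and stayed under the minimum level, at 1.46 and 5.05 CPM. Cluster 23, also nearest to CA1 and led by C1qtnf7, Cpa6 and Unc13c, had 6 of 8 genes higher, against 1.83%, and cluster 21, nearest to CA3, 5 of 6, against 1.41%. In cluster 13, led by Gm6260, Fn1 and Teddm3, 4 of 5 genes were higher, against 2.29%; Ankrd55 was at 3.94 CPM in control and 131 CPM in knockout. Cluster 16, led by Npsr1 and Tecta, had 4 of 6 higher, against 2.41%, and cluster 12, nearest to immature granule neurons, 4 of 9, against 0.824%. No member was lower by the rule in the 15 named classes or these 6 clusters, where 0.485% of the genes tested were.

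**Figure D2:**
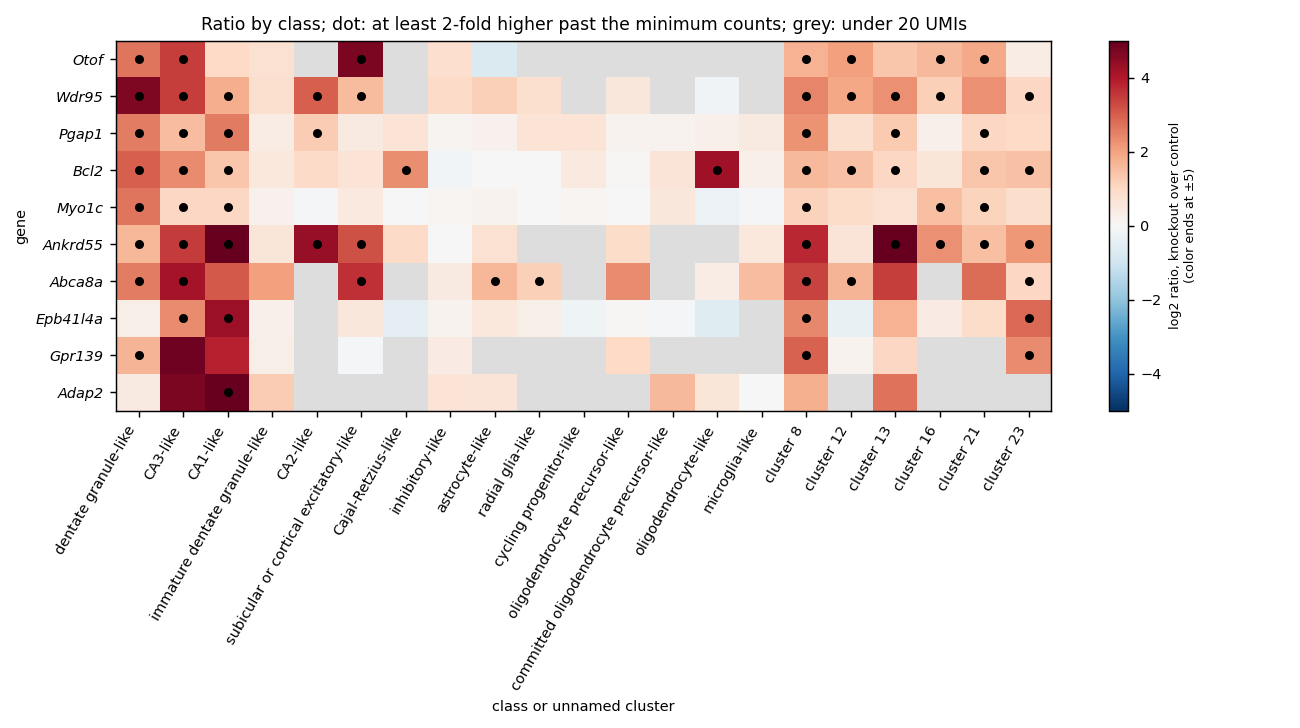
Log2 ratio of knockout over control for each gene (rows) in 15 named classes and 6 numbered clusters (columns). Dots mark ratios of at least 2-fold past the minimum counts, and grey marks fewer than 20 UMIs in both libraries together. Dots gather in excitatory classes and in clusters 8 to 23; immature granule-like, inhibitory-like and microglia-like columns have none.

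In immature dentate granule-like nuclei none of the 5 members that passed was higher by the rule, against 0.281% of genes tested. Smaller gains were present: the log2 ratios of the 10 genes ran from 0.22 to 2.06, with 6 intervals above 0. Their median was 0.58, against 0.06 over all genes with at least 20 UMIs. Etv4 did differ there, with 13 UMIs in control and 1051 in knockout, a log2 ratio of 6.37 (5.65 to 7.34), close to that of mature granule-like nuclei. Pgap1 and Bcl2 were already at a high level in the immature class of the control library. Pgap1 stood at 197 CPM there, against 15.3 CPM in mature granule-like nuclei, and Bcl2 at 143 CPM, against 8.32 CPM. In knockout, mature granule-like nuclei had 89.9 CPM of Pgap1 and 66.5 CPM of Bcl2, still under the immature control level. The immature class itself had 255 CPM of Pgap1 and 208 CPM of Bcl2 in knockout, log2 ratios of 0.37 and 0.54.

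The pattern of a high control level elsewhere was common among the members. Ankrd55 was at 97.8 CPM in control and 98.9 CPM in knockout inhibitory-like nuclei, as high as in knockout CA3-like nuclei (91.3 CPM). Epb41l4a had its highest level in Cajal-Retzius-like nuclei, 144 CPM in control and 102 CPM in knockout, and 67.2 and 75.8 CPM in inhibitory-like nuclei. Bcl2 was highest in radial glia-like nuclei, at 588 CPM in both libraries, and in astrocyte-like nuclei, at 316 and 319 CPM. None of these 3 genes was higher by the rule in the classes just given for it. In inhibitory-like nuclei none of the 5 members that passed was higher, against 0.0796% of genes. Smaller differences were present, with 4 intervals of the 10 genes above 0 and 1 below. Their median log2 ratio was 0.29, against 0.05 over all genes with at least 20 UMIs. Inhibitory-like nuclei had little Etv4, 2.31 CPM in control and 9.60 CPM in knockout, a log2 ratio of 2.04 (1.60 to 2.53) just under the minimum level. Microglia-like nuclei had none of 4 members higher, against 0.15%. Their Etv4 was higher by the rule, with 14 and 83 UMIs, or 4.19 and 31.3 CPM, a log2 ratio of 2.86 (2.07 to 3.83).

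**Figure D3:**
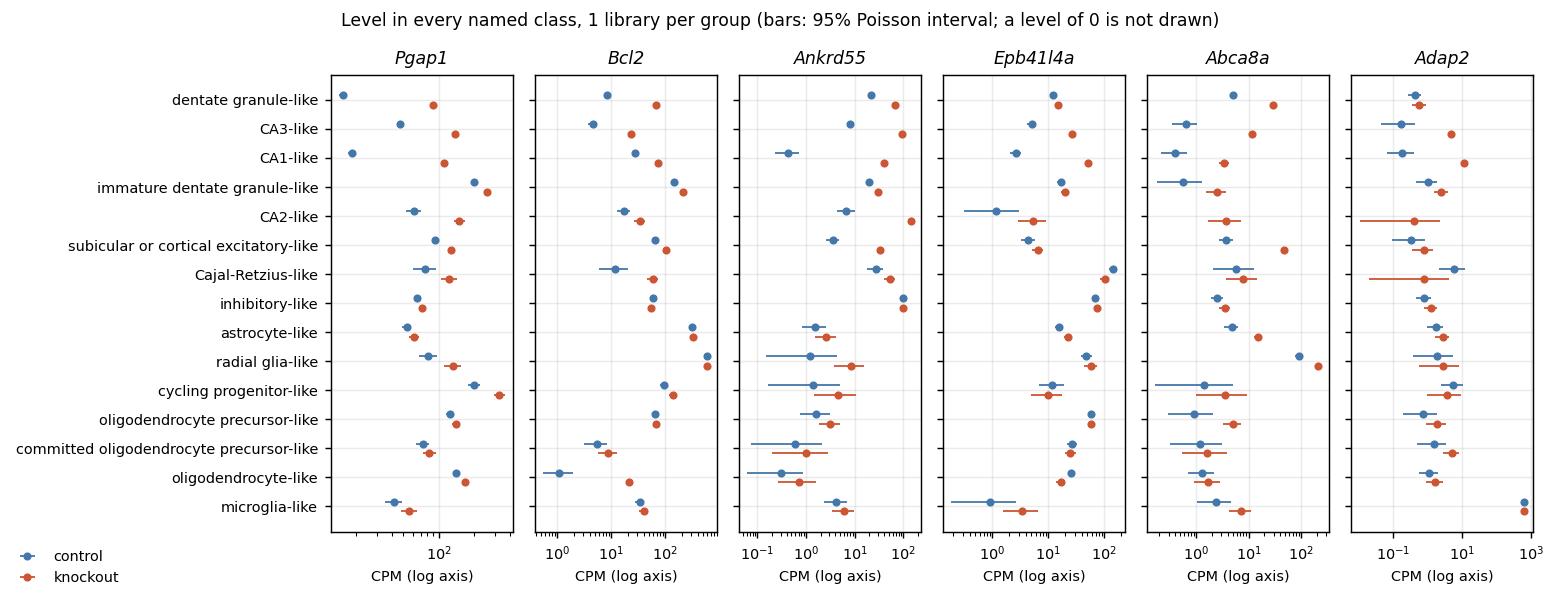
Level of Pgap1, Bcl2, Ankrd55, Epb41l4a, Abca8a and Adap2 in all 15 named classes, in CPM on a log axis with 95% Poisson intervals, control in blue and knockout in orange. Control levels of Bcl2 in radial glia-like (588 CPM) and astrocyte-like nuclei (316 CPM), of Ankrd55 in inhibitory-like nuclei (97.8 CPM) and of Adap2 in microglia-like nuclei (632 CPM) lie above the knockout levels of granule-like and CA1-like nuclei.

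Glial and other classes gave single genes. Abca8a was higher in radial glia-like nuclei, from 92.1 to 212 CPM (log2 ratio 1.20, 0.90 to 1.51), the 1 of 4 members that passed to do so, against 0.441% of genes. In astrocyte-like nuclei it was again the 1 of 4, from 4.73 to 15.3 CPM (1.68, 1.17 to 2.23), against 0.138%, the largest ratio among genes passing the minimum in that class. Female astrocyte-like nuclei alone gave a smaller ratio, 1.03, than male ones, 2.42, and no member was higher by the rule in females. Oligodendrocyte-like nuclei gained Bcl2, 1 of 3, against 2.17%. They held 11 UMIs in control and 178 in knockout, 1.10 and 21.5 CPM, a log2 ratio of 4.23 (3.41 to 5.32). The gain was present in both oligodendrocyte clusters, with 8 and 101 UMIs in cluster 10 and 3 and 77 UMIs in cluster 19, and in females (3.92) and males (4.56). At 2000 UMIs per nucleus 0.34% of control and 3.66% of knockout oligodendrocyte-like nuclei held Bcl2, against 0.66% and 1.09% of committed oligodendrocyte precursor-like nuclei. The other 2 members that passed in this class were not higher: Pgap1 stood at 140.1 and 167 CPM and Epb41l4a at 25.3 and 16.6 CPM, and the remaining 7 were under the minimum. Within cluster 19, however, Epb41l4a went from 102 to 46 UMIs, or 30.2 to 12.4 CPM, a log2 ratio of -1.28 (-1.83 to -0.78), against -0.18 (-0.57 to 0.20) in cluster 10.

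Bcl2 was also higher in Cajal-Retzius-like nuclei, 12 and 76 UMIs or 11.5 and 58.7 CPM, 1 of 4 members, against 2.61%. Committed oligodendrocyte precursor-like nuclei had none of 2 higher, against 1.19%, oligodendrocyte precursor-like nuclei none of 3, against 0.191%, and cycling progenitor-like nuclei none of 2, against 0.343%. Etv4 was higher by the rule in 12 of the 15 named classes. In 4 of these 12 (immature granule-like, cycling progenitor-like, committed oligodendrocyte precursor-like and microglia-like nuclei) no member reached the limits of the rule. Microglia arise outside the Emx1 lineage, and the part of free RNA in their Etv4 counts was not tested. A log2 ratio of 5.49 for Etv4 in committed oligodendrocyte precursor-like nuclei was close to that in CA3-like nuclei (5.55). In CA2-like nuclei, where 3 members were higher, Etv4 had 1 UMI in control and 15 in knockout, a log2 ratio of 3.89 (1.73 to 9.82) on counts under the minimum.

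Co-detection with Etv4 was counted within the knockout library, with nuclei thinned to 5000 UMIs so that deep nuclei did not yield both transcripts by depth alone. Shallower nuclei were left out: 80 in granule-like nuclei, but 1948 of 2318 in immature granule-like, 1289 of 1741 in astrocyte-like and 333 of 355 in radial glia-like nuclei. The ratio is the number of nuclei with both over the number expected if the 2 were independent, with a Poisson interval. Where at least 5 nuclei with both were expected, no member had an interval above 1. These intervals do not hold the totals of Etv4 and of the member fixed, so they are too wide where Etv4 is common. Whether small excesses would pass an interval with fixed totals was not tested. CA2-like and microglia-like nuclei and cluster 26 had no member with at least 5 expected and gave no ratio. In granule-like nuclei Etv4 was found in 1392 of 3282 nuclei (42.4%; 24 of 4286 in control). Otof was found in 18.2% of nuclei with and 17.3% of nuclei without an Etv4 UMI, Pgap1 in 33.3% and 33.3%, Bcl2 in 27.1% and 24.5% and Wdr95 in 17.0% and 14.4%. Wdr95 and Etv4 met in 236 nuclei, 1.10 times (0.96 to 1.24) the 215 expected if the 2 were independent. Of the 9 members with at least 5 nuclei expected, 7 had a ratio above 1 and none an interval above 1, over a range of 0.84 for Epb41l4a to 1.10 for Wdr95.

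CA1-like nuclei also had no member with an interval above 1, though fewer ratios lay above 1 than in granule-like nuclei. Etv4 was found in 446 of 1362 nuclei (32.7%). Ankrd55 was found in 16.4% of nuclei with and 14.6% without Etv4, Epb41l4a in 19.3% and 21.1% and Adap2 in 3.81% and 5.24%. Ratios ran from 0.68 for Otof to 1.15 for Myo1c, with 3 of 9 above 1. In CA3-like nuclei only 95 of 865 nuclei held Etv4, and intervals were wide: Wdr95 had 1.49 (0.75 to 2.67) and Bcl2 0.35 (0.07 to 1.02), with 3 of 7 members above 1. Over the classes and clusters with a ratio 115 were taken, none had an interval above 1 and 1 had an interval below 1, Abca8a at 0.68 among subicular or cortical excitatory-like nuclei.

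Genes outside the set were counted the same way. Other CIC targets met Etv4 at close to the number independence gives in granule-like nuclei, Etv5 at 1.03, Shc3 at 1.00 and Spred3 at 0.98. So did the general neuronal genes Rbfox3, Snap25 and Grin1, between 0.99 and 1.00. Already at 2000 UMIs these were found in 58.5%, 72.0% and 45.6% of knockout granule-like nuclei, against 17.1% for Pgap1. The ratio of a gene found in most nuclei cannot move far from 1, so they are a weak comparison for the members. A nucleus without an Etv4 UMI is not shown to lack the transcript, since at full depth 67.0% of knockout granule-like nuclei held one. At 5000 UMIs the mean number of the 10 genes found per nucleus was 0.37 in control and 1.55 in knockout granule-like nuclei, 0.39 and 1.54 in CA1-like nuclei, 0.35 and 1.32 in CA3-like nuclei and 0.43 and 2.06 in cluster 8. These differences follow from the choice of the genes and are a description. Among knockout granule-like nuclei the mean was 1.59 with and 1.51 without an Etv4 UMI, and 81.7% held at least 1 of the 10 genes, against 29.7% in control. The direction differed between classes. The mean was 1.52 with and 1.55 without an Etv4 UMI in CA1-like nuclei and 1.16 and 1.34 in CA3-like nuclei. It was 1.59 and 1.67 in subicular or cortical excitatory-like nuclei, but 2.16 and 1.99 in cluster 8. In immature granule-like nuclei, where 370 were deep enough, all 7 members with a ratio were above 1, from 1.04 to 1.32, though with intervals that include 1, and the mean was 1.91 with and 1.62 without an Etv4 UMI. Pairs of members met at a median of 1.03 times the number independence gives over 36 pairs in granule-like nuclei (0.74 to 1.48), 0.99 over 29 in CA1-like nuclei (0.56 to 1.46) and 0.98 over 25 in CA3-like nuclei (0.46 to 2.32). The highest were Otof with Epb41l4a in granule-like nuclei, in 53 nuclei where 35.7 were expected, and Abca8a with Epb41l4a in CA3-like nuclei, in 12 where 5.17 were expected; no interval was taken for pairs.

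**Figure D4:**
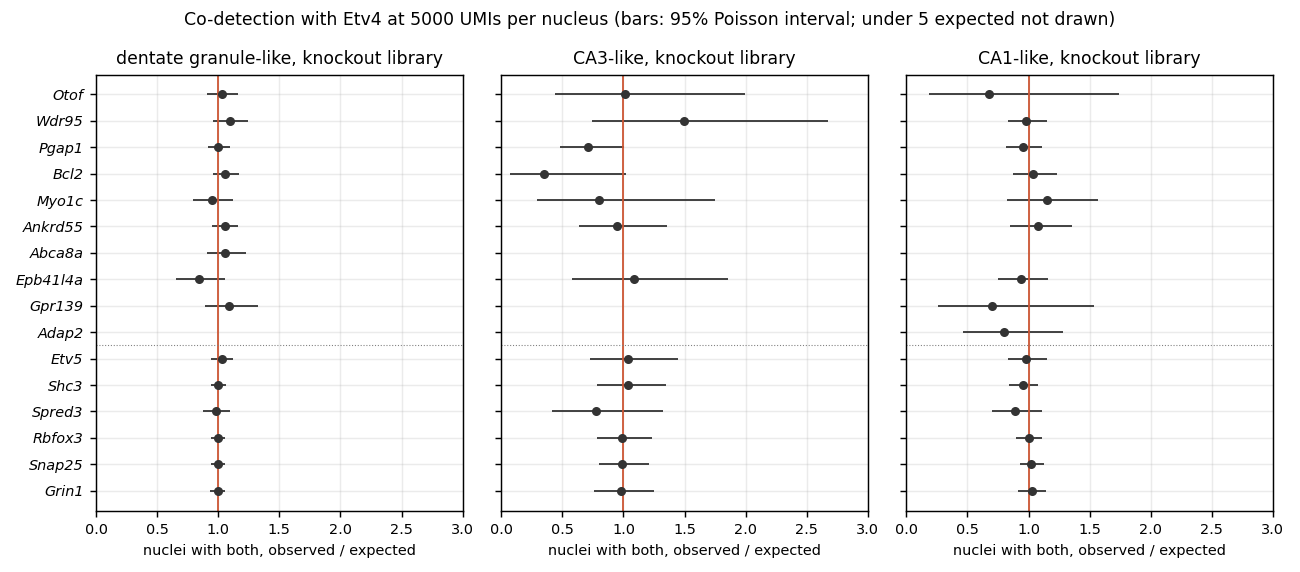
Number of knockout nuclei holding both Etv4 and each gene, divided by the number expected if the 2 were independent, at 5000 UMIs per nucleus, with 95% Poisson intervals; the line marks 1. The 10 members stand above the dotted line, and 3 other CIC targets and 3 general neuronal genes below it. All intervals shown include 1; the members' ratios run from 0.84 to 1.10 in granule-like nuclei, and intervals are widest in CA3-like nuclei.

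The wider CIC pathway and the members' families were counted by the same rule. These lists were chosen with earlier results of the same data known, so their counts and medians are a description. Of 15 listed CIC targets, none of them a member, 6 were higher and 1 lower in granule-like nuclei (10 passed), 5 higher of 9 in the CA3-like and 3 higher of 10 in the CA1-like class. Over all genes 2.3% were higher and 1.08% lower in granule-like nuclei, and 1.32% and 3.15% were higher in the other 2 classes. Their median log2 ratios were 1.70, 0.64 and 0.68, against 0.02, 0.07 and 0.10 over all genes with at least 20 UMIs. Besides Etv4, the adaptor Shc3 had log2 ratios of 3.64, 1.68 and 1.54 and Etv5 of 5.95, 3.24 and 1.85. Spry2, a feedback inhibitor of receptor tyrosine kinase signalling, was the gene that was lower, at 12.6 and 5.63 CPM in granule-like nuclei (-1.15, -1.39 to -0.93). Among the ferlins Dysf (1.55) and Myof (1.32) were higher in CA3-like nuclei, and among the FERM-domain relatives of Epb41l4a, Epb41l2 (1.46) and Epb41l3 (1.55) in granule-like and Epb41 (2.59) in CA1-like nuclei. No other gene of the BCL2 family, the class I myosins, the ABCA transporters near Abca8a, the GPI anchor remodelling enzymes or the ADAP family was higher or lower in these 3 classes.

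The genes next to each member on the chromosome were also counted, 2 on each side. None of the 17 neighbours, of 40, that passed the minimum was higher in granule-like nuclei, whereas 3 of 18 were in CA1-like and 2 of 17 in CA3-like nuclei; the shares over all genes are those given for these classes above. Ankrd44 and 4930444A19Rik, the first and second genes on one side of Pgap1, had log2 ratios of 3.73 and 3.47 in CA1-like and 2.23 and 1.89 in CA3-like nuclei. The level of Ankrd44 thus went from 198 to 1813 UMIs in CA1-like nuclei, while Pgap1 itself went from 597 to 2478. In granule-like nuclei Ankrd44 had a log2 ratio of -0.66 (-0.85 to -0.47), beside 2.55 for Pgap1. The third was Drc1, next to Otof, at 1.10 in CA1-like nuclei; it was just under the limit, at 1.00 and 0.97, for the CA3-like and granule-like classes.

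Across the 15 classes the gene most like each member in its log2 ratios was sought among 1243 genes higher or lower in at least 1 class. Pearson correlations over the 15 classes are a description, since all classes come from the same 2 libraries. The closest were 4930444A19Rik for Ankrd55 (0.93), Igsf3 for Epb41l4a (0.92), Klhl32 for Adap2 (0.90), Camk2d for Pgap1 (0.90) and N4bp2 for Abca8a (0.88). Epb41l3 for Wdr95 (0.86), Tbl1x for Myo1c (0.86), Slc6a11 for Bcl2 (0.86), Plekha7 for Gpr139 (0.83) and 4933439C10Rik for Otof (0.68) followed. Each is the best of these candidates, and the 15 classes include the 3 whose ratios chose the members.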

How the data were processed

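The 2 single-nucleus libraries (10x Genomics) were analysed, 1 per group. The deposited counts are whole UMI numbers per gene and barcode that the authors made with Cell Ranger 8.0.1 on the build mm39, per the submitters' processing notes; whether intronic reads or strand were used is not given in the sources used here. The control held 25907 barcodes and 314453640 UMIs, the knockout 23207 and 252995761. Nuclei with at least 500 genes and at most 5% mitochondrial UMIs were kept, and Scrublet (scanpy 1.11.5, expected rate 0.1, per library) removed 3195 (12.7%) and 2512 (10.9%) as doublets. Nuclei were clustered on 3000 variable genes, 30 principal components and 15 neighbours with leidenalg 0.10.2 at resolution 1, leaving out the 10 genes, Etv4, Etv5, sex-linked and mitochondrial genes. A cluster took the name of 1 of 21 marker sets when at least 3 markers were raised, with a mean log2 fold of at least 1. It stayed unnamed where another set had more markers than its own among the top 10 genes by fold, as in cluster 8 (nearest to CA1, mean fold 1.03), or where its median depth was under that of its sample divided by 3 with no own marker leading. The minimum mean fold was raised from 0.5 after the clusters had been seen; 6 clusters lay under it (7.72% of control and 8.97% of knockout nuclei), of which cluster 13 was also under the earlier value; names are rebuilt, not the authors'. A cluster present in 1 library only, 28 control nuclei with microglial markers, was also left unnamed, a rule added after its values were seen.

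UMIs were summed per library and class, and log2 ratios were taken on sums scaled to the class total with 0.5 UMI added. Intervals are exact at 95%: Poisson for sums, conditional binomial for ratios, Clopper-Pearson for shares and Poisson for co-detected nuclei. UMIs remove PCR copies, but intervals cover counting error only. Those for co-detected nuclei do not hold the totals of the genes fixed, so they are wider than intervals with fixed totals. The genes named were the 10 members in every class, Cic, Etv4, Etv5, up to 4 called genes of each list, 2 neighbours on each side and the most alike gene; further names in the text are the clusters' leading genes. The members and lists were chosen with earlier results of these data known, and the promoter octamers after windows had been looked at. Gene order and promoters came from RefSeq (GRCm38.p6). Overlapping antisense genes came from GENCODE M21, which held 31961 of 33696 genes (94.9%).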

Additional observations from a re-analysis of the deposited data

How the results depend on the processing

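Over 11 alternatives, 330 ratios of single members in the 3 classes of the choice were recomputed: 329 stayed positive, 285 moved by less than their counting interval and 45 by more. Subtracting the microglial mean per nucleus as free RNA moved 6 values in CA1-like and 3 each in CA3-like and granule-like nuclei. It left Adap2 at 0 UMIs in both libraries, so the ratios of 0.53 (CA1-like) and 0.29 (CA3-like) it gives hold no counts. The CA1-like count became 6. Counts of members higher by the rule moved as follows, where only moves beyond a tolerance of 1.5-fold are listed. Among the smaller moves, median-of-ratios size factors took Myo1c under 2-fold in CA3-like and CA1-like nuclei. Thinning to 2000 UMIs gave 3 in CA3-like and 0 in CA2-like, Cajal-Retzius-like and oligodendrocyte-like nuclei, where fewer UMIs reached the minimum. Asking for 20 UMIs, with no limit on CPM, gave 2 in immature granule-like, 2 in astrocyte-like and 1 in oligodendrocyte precursor-like nuclei. Female nuclei alone gave 0 in Cajal-Retzius-like and astrocyte-like nuclei, and male nuclei alone 0 in Cajal-Retzius-like nuclei. With doublets kept, the counts were 2 in immature granule-like, 7 in CA2-like, 2 in Cajal-Retzius-like, 3 in astrocyte-like, 1 in oligodendrocyte precursor-like, 4 in committed oligodendrocyte precursor-like, 2 in oligodendrocyte-like and 5 in microglia-like nuclei. Immature granule-like nuclei had 1 with the members allowed in clustering and 1 with changed genes left out of it. The CIC target median in CA1-like nuclei was 0.57 with median-of-ratios size factors, which shifted log2 ratios by -0.11 in CA1-like and -0.13 in CA2-like nuclei. That scaling changed the higher and lower gene counts from 257 and 85 to 209 and 110 in CA1-like, and from 141 and 66 to 112 and 93 in CA2-like nuclei. The number of members with a co-detection ratio above 1, whatever its interval, was 7 in granule-like and 3 each in CA3-like and CA1-like nuclei. It became 4 in granule-like nuclei with at least 2 Etv4 UMIs and 7 in CA1-like nuclei without thinning. In CA3-like nuclei it became 1 when thinned to 2000 UMIs and in each sex alone. The cause of these moves was not tested. Without a value were the CA2 class with changed genes left out and CA3-like nuclei with at least 2 Etv4 UMIs. No paired analysis was possible because each group is 1 library. Low counts limit the ratios of Gpr139 and Adap2 in CA3-like nuclei, with 2 and 4 control UMIs.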

Other observations

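Annotated antisense genes overlap 4 of the 10 genes. How far the counts keep reads of the partners apart is not known, because the counting strand is not given in the sources used here. In CA1-like nuclei Adap2os, which overlaps Adap2 on the opposite strand, went from 4 to 104 UMIs, while Adap2 went from 6 to 261; in CA3-like nuclei Adap2os stood at 61 and 67 UMIs while Adap2 went from 4 to 95. Gm48837, opposite Ankrd55, had 0 UMIs in control and 49 in knockout CA1-like nuclei and 10 and 101 in CA3-like nuclei. Gm15997, opposite Wdr95, had 81 and 287 UMIs in granule-like nuclei, and D630008O14Rik, opposite Bcl2, had 4 and 25.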
